A study of Mus musculus with 10 samples.

Results

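The BCL2 family of apoptosis regulators was followed in the mouse heart as 10 genes chosen by symbol in a table of 54532 genes. The members are 4 anti-apoptotic genes (Bcl2, Bcl2l1, Mcl1 and Bcl2a1a), 2 effectors (Bax and Bak1) and 4 BH3-only genes (Bbc3, Bcl2l11, Bid and Pmaip1), so that 6 of the 10 promote cell death. The rule goes by symbol alone, although earlier results of these data were known when the members were picked. All 10 members passed the filter on low counts, which Bcl2a1a would not have passed on control hearts alone.

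The family decides whether the mitochondrial outer membrane is opened. BAX and BAK form the pores, through which cytochrome c leaves and starts caspase activation. BCL-2, BCL-XL (gene Bcl2l1), MCL-1 and A1 (genes Bcl2a1a, Bcl2a1b and Bcl2a1d in the mouse) hold them in check, and BH3-only proteins such as BIM (Bcl2l11), PUMA (Bbc3), BID and NOXA (Pmaip1) respond to stress by binding these guardians, or BAX and BAK directly. Heart muscle is known to depend on MCL-1. The present data measure mRNA and not protein, membrane permeability or cell death.

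RNA came from whole hearts of C57BL/6 mice 8 weeks old. The 10 libraries comprise 5 saline-injected controls and 5 hearts taken 24 h after lipopolysaccharide (LPS), the bacterial cell wall component used to model sepsis. The groups share strain, age and tissue (dose, route, sex: not stated in the labels). The titles number the libraries from 1 to 5 in each group and speak of mice, without stating whether each library is a single animal. Nothing states how the animals were housed or processed. The p-values therefore weigh group differences against the spread between these libraries, and a heart below stands for a library. In bulk tissue, fewer cells of a type and less RNA per cell cannot be told apart.

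Total counts per library were between 14607969 and 17012372. Saline replicate 5 stood apart from the other saline libraries: in a principal component analysis of the 1000 genes with the highest variance it lay on component 1 at -0.56, where the other saline libraries lay between -67.0 and -55.1 and LPS libraries between 43.7 and 55.0. Beside results that it moves by over 1.5 times, the value without it is given. The 6 cardiomyocyte markers checked (Myh6, Actn2, Tnnt2, Tnni3, Ryr2 and Pln) were abundant in every library and none passed the test.

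LPS hearts held more mRNA of Bcl2l11, Bid and Bcl2a1a and less of Bcl2 and Bbc3, while Mcl1, Bcl2l1, Bax, Bak1 and Pmaip1 did not pass the test. Both directions thus occurred within the anti-apoptotic members and within the BH3-only members. Of 10 members 3 rose and 2 fell by edgeR's quasi-likelihood test at an adjusted p of 0.05, a call made for 39.9% of all 13864 tested genes (18.9% rising and 21.0% falling). The members' share of calls, 5 of 10, is near that background. Bcl2a1a, with 24 reads in saline and 318 in LPS libraries, passed the filter through its LPS libraries. Its place among the members that rose or lay wholly above saline is thus partly set by the filter. LPS libraries lay wholly above saline libraries for 3 members and for 14.3% of all tested genes, and wholly below for 2 members and for 14.1% of genes. On the log2 scale the members' median fold change was 0.27 and that of all tested genes -0.02. Without saline replicate 5 the same 5 members were called, where 44.0% of tested genes were (21.0% rising and 22.9% falling). Without LPS replicate 4, 5 members rose, since Bcl2l1 and Bak1 passed as well, and without saline replicate 1 Bak1 passed.

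**Figure D1:**
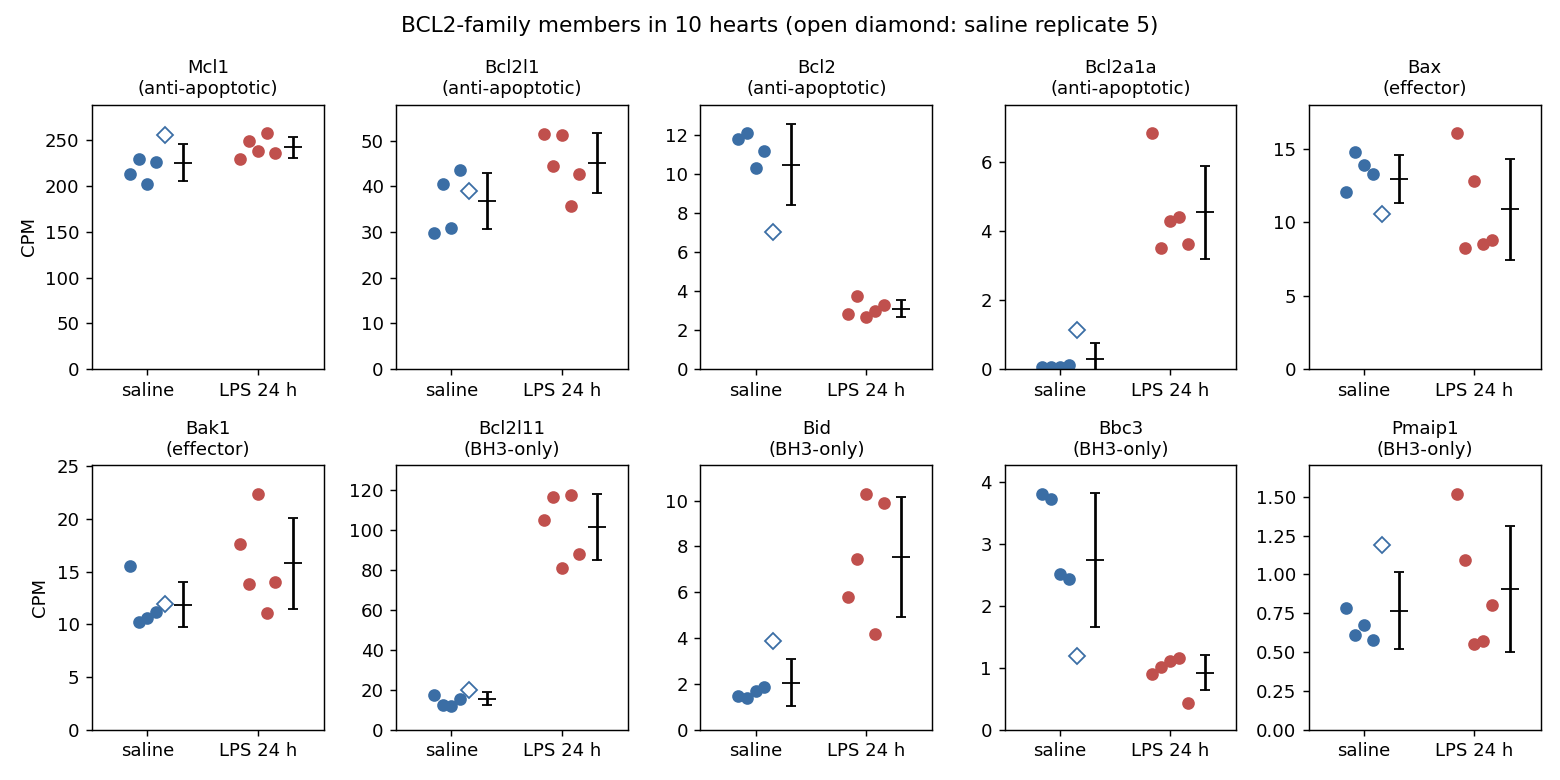
CPM (scaled read count) of each of the 10 members in the 5 saline (blue) and 5 LPS (red) libraries, with the mean and SD at the right of each group and saline replicate 5 as an open diamond; each panel has its own linear axis from 0. Bcl2l11, Bid and Bcl2a1a lie higher in all LPS libraries than in any saline library, and Bcl2 and Bbc3 lie lower.

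Bcl2l11 (ENSMUSG00000027381, chr2:128126038-128162547 of GRCm38) encodes BIM, a BH3-only protein that binds all anti-apoptotic relatives and also activates BAX. In saline replicates 1 to 5 it was at 17.3, 12.3, 12.1, 15.6 and 19.9 CPM (the read count scaled to a common effective library size), and in LPS replicates 1 to 5 at 104.9, 116.5, 80.9, 117.7 and 88.0 CPM. Every LPS heart was thus far above every saline heart, saline replicate 5 included. The log2 fold change was 2.72 ± 0.16 (SE, edgeR adjusted p = 8.79e-08), a 6.57-fold rise, and 2.83 without saline replicate 5.

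Bid (ENSMUSG00000004446, chr6:120891930-120916853) encodes a BH3-only protein that caspase-8 cleaves, which links death receptors to mitochondria. It was at 1.46, 1.39, 1.68, 1.85 and 3.86 CPM in saline replicates 1 to 5 and at 5.81, 7.47, 10.3, 4.18 and 9.89 CPM in LPS replicates 1 to 5. The groups did not overlap, but saline replicate 5 was close to LPS replicate 4. Bid rose by a log2 fold change of 1.88 ± 0.32 (SE, edgeR adjusted p = 0.00039), or 2.24 without saline replicate 5. Of its 3550 exonic bases, 628 are shared with Bcl2l13, which lies on the other strand and had 15082 reads against 715 for Bid. The labels do not say if strand was used in counting, so reads of the pair may be mixed where they overlap. Bcl2l13 itself rose by a log2 fold change of 0.32 ± 0.09 (SE).

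Bbc3 (ENSMUSG00000002083, chr7:16308393-16318205) encodes PUMA, a strong BH3-only killer known as a p53 target. It went the other way, with 3.81, 3.73, 2.52, 2.43 and 1.19 CPM in saline and 0.899, 1.01, 1.11, 1.15 and 0.436 CPM in LPS replicates 1 to 5. The lowest saline value, again in replicate 5, was just above the highest LPS value. Bbc3 fell, with a log2 fold change of -1.57 ± 0.34 (SE, edgeR adjusted p = 0.00221), or -1.75 without saline replicate 5. These values rest on 247 saline and 64 LPS reads.

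Pmaip1 (ENSMUSG00000024521) encodes NOXA, a BH3-only protein that targets MCL-1 and A1. It was at 0.783, 0.613, 0.673, 0.579 and 1.19 CPM in saline and 1.52, 1.09, 0.553, 0.573 and 0.800 CPM in LPS replicates 1 to 5. The groups overlapped throughout, on 68 and 63 reads in all. The log2 fold change was 0.24 with a 95% interval of -0.52 to 1.01 (edgeR adjusted p = 0.625).

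The start regions of Bcl2l11 and Bbc3 are shown because both genes are textbook targets of FOXO transcription factors and yet moved in opposite directions. Promoter sequences from RefSeq (GRCm38.p6, 250 bases before to 50 after a start) matched 9 of the 10 members, in 14 entries. The letters GTAAACA, the FOXO core, were searched on both strands and were present in 2 of these entries, 1 of Bcl2l11 and 1 of Bbc3, and in 3.65% of 32851 promoter entries of all genes. Both lie on the plus strand, at chr2:128125788-128126087 and chr7:16310011-16310310, and are printed 5′ to 3′ with the core in capitals; in Bbc3 it reads on the opposite strand.
Bcl2l11: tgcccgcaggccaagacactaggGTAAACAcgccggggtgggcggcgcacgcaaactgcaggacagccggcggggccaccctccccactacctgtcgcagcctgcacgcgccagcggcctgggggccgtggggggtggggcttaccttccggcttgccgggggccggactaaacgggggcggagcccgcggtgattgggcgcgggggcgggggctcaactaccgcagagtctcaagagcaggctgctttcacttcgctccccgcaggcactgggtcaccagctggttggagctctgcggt
Bbc3: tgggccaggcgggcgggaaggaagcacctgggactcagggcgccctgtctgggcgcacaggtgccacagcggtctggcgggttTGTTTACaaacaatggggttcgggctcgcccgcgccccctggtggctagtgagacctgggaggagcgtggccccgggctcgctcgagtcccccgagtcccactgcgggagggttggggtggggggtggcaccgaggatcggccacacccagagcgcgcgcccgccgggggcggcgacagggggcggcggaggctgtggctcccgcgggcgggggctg
The core starts 227 bases before the first transcribed base in Bcl2l11 and 167 bases before it in this entry of Bbc3, which has 3 entries. A match of letters is a description and not a binding site. The same windows were searched for TGANTCA, the AP-1 motif, for the NF-kappaB motif and for the p53 decamer. The AP-1 letters were found in Bcl2a1a only among the members (7.81% of all entries). The NF-kappaB motif was found in 1 entry each of Bcl2l1 and Bbc3 (8.46% of all entries), and the p53 decamer in Bax (8.36% of all entries).

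Bcl2 (ENSMUSG00000057329, chr1:106538178-106714274) encodes the founding guardian of the family. It was at 11.8, 12.1, 10.3, 11.2 and 7.01 CPM in saline and 2.84, 3.73, 2.64, 2.95 and 3.27 CPM in LPS replicates 1 to 5. All LPS hearts were below all saline hearts, of which replicate 5 was the lowest. Bcl2 fell, with a log2 fold change of -1.77 ± 0.18 (SE, edgeR adjusted p = 4.21e-06), a 3.40-fold decrease, and -1.88 without saline replicate 5. Endothelial markers moved in the same direction: 6 of 6 fell, where 21.0% of all tested genes fell. Their summed level was 747.8 CPM in saline replicate 5 and 1167.2 to 1374.7 CPM in the other saline libraries. In LPS libraries it was 439.9 to 569.9 CPM. The markers differed in size of change, with log2 fold changes from -3.36 (Egfl7) to -0.49 (Tie1). Saline replicate 5 was far below the other saline libraries for Kdr (115.0 CPM against 319.9 to 382.4), Cdh5 (189.7 against 303.8 to 345.3) and Egfl7. It was only slightly below them for Pecam1 (261.8 against 282.2 to 332.1), Tie1 (112.2 against 128.8 to 155.6) and Emcn. Of 6 fibroblast markers 2 fell and 0 rose, and of 7 macrophage and monocyte markers 4 fell and 1 rose. The part of these cells in the fall of Bcl2 was not tested.

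Bcl2a1a (ENSMUSG00000102037, chr9:88956900-88962419) encodes A1, an anti-apoptotic relative known mainly from blood cells and as an NF-kappaB target. The mouse carries near-identical copies on chromosome 9, and their coding sequences are shown because reads may not tell them apart. Each is 519 bases long. Bcl2a1a differs from Bcl2a1d at 7 positions (98.7% identical) and from Bcl2a1b at 11 (97.9% identical). Of 50-base windows of the Bcl2a1a coding sequence, 74.0% occur unchanged in another copy, and of 100-base windows 54.3%. The first 100 coding bases, from GENCODE M21 (GRCm38) transcripts, hold 7 of the 12 positions that vary among the copies, which are in capitals.
Bcl2a1a: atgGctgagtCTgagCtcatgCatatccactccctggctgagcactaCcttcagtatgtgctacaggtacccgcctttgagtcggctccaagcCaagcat
Bcl2a1b: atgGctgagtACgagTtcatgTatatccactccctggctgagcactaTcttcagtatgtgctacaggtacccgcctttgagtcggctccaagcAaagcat
Bcl2a1d: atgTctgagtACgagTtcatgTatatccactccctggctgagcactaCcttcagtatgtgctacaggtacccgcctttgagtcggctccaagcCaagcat

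As deposited, Bcl2a1a was at 0.0522, 0.0557, 0.0561, 0.116 and 1.13 CPM in saline and 6.85, 3.50, 4.30, 4.42 and 3.64 CPM in LPS replicates 1 to 5. Of its 24 saline reads 5 came from replicates 1 to 4, and LPS libraries held 318. It rose by a log2 fold change of 4.02 ± 0.63 (SE, edgeR adjusted p = 0.000361), or 5.89 without saline replicate 5, a fitted value that rests on those 5 saline reads. Because the split between copies is uncertain, their counts were also summed per library. The sum was at 0.313, 0.557, 0.561, 0.347 and 3.27 CPM in saline and 29.1, 11.3, 14.6, 11.3 and 8.22 CPM in LPS replicates 1 to 5, a log2 fold change of 3.90 ± 0.67 (SE, edgeR adjusted p = 0.0016), or 5.05 without saline replicate 5.

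Neutrophil markers as a sum, like the Bcl2a1 copies, were higher in LPS libraries and in saline replicate 5 than in saline replicates 1 to 4. Of 8 markers 4 passed the filter and 2 of these rose, where 18.9% of all tested genes rose. Without saline replicate 5 all 4 rose, where 21.0% of tested genes did. Each of the 4 had fewer than 10 reads in some saline library and needed LPS libraries to pass the filter. The number that rose is thus partly set by the filter and cannot be read against those shares. Their summed level was 1.35 to 4.07 CPM in saline replicates 1 to 4, 25.0 CPM in saline replicate 5 and 13.4 to 42.0 CPM in LPS libraries. In LPS replicates 1 to 5 the marker sum was 19.8, 20.5, 42.0, 13.4 and 35.7 CPM. The Bcl2a1 sum was highest in LPS replicate 1 and lowest in LPS replicate 5. Among the defining genes, Ly6g had 9 reads and Mpo 5 reads in all 10 libraries. Of 7 macrophage and monocyte markers 1 rose and 4 fell. T, NK and B cell markers were near 0, with summed levels of at most 2.40 CPM for T and NK cells and 3.85 CPM for B cells. The part of these cells in the Bcl2a1 result was not tested.

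Mcl1 (ENSMUSG00000038612, chr3:95658788-95663176) encodes MCL-1, a guardian with a fast turnover. It was at 213.1, 229.4, 202.4, 226.1 and 256.1 CPM in saline and 229.9, 249.7, 238.2, 258.2 and 236.1 CPM in LPS replicates 1 to 5. The groups overlapped through saline replicate 5. The log2 fold change was 0.10, with a 95% interval of -0.08 to 0.29 (edgeR adjusted p = 0.361), and its sign turned with upper quartile scaling (-0.05) and total count scaling (-0.17).

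Bcl2l1 (ENSMUSG00000007659, chr2:152780668-152831728) encodes BCL-XL. It was at 29.7, 40.5, 30.8, 43.6 and 38.9 CPM in saline and 51.5, 44.4, 51.3, 35.7 and 42.7 CPM in LPS replicates 1 to 5. LPS replicates 4 and 5 lay within the saline range. The log2 fold change was 0.30 ± 0.13 (SE, edgeR adjusted p = 0.0829), and 0.40 without LPS replicate 4 (adjusted p = 0.0261).

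Neither pore former passed the test. Bax (ENSMUSG00000003873, chr7:45461697-45466898) was at 12.1, 14.8, 13.9, 13.3 and 10.6 CPM in saline and 16.1, 8.25, 12.8, 8.52 and 8.80 CPM in LPS replicates 1 to 5. LPS replicates 2, 4 and 5 were below all saline hearts and LPS replicate 1 above them, and the log2 fold change was -0.24 with a 95% interval of -0.64 to 0.16 (edgeR adjusted p = 0.332). Bak1 (ENSMUSG00000057789, chr17:27019810-27029009) was at 15.5, 10.2, 10.6, 11.2 and 11.9 CPM in saline and 17.6, 13.8, 22.4, 11.1 and 14.0 CPM in LPS replicates 1 to 5. Saline replicates 1, 4 and 5 lay within the LPS range, and LPS replicates 2, 4 and 5 within the saline range. The log2 fold change of Bak1 was 0.41 ± 0.18 (SE, edgeR adjusted p = 0.0824), and 0.55 without saline replicate 1 (adjusted p = 0.0327) or 0.54 without LPS replicate 4 (adjusted p = 0.0252). Bak1 shares 437 of its 2407 exonic bases with Ggnbp1 on the other strand, which had 1453 reads against 2188, and the same limit holds there.

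**Figure D2:**
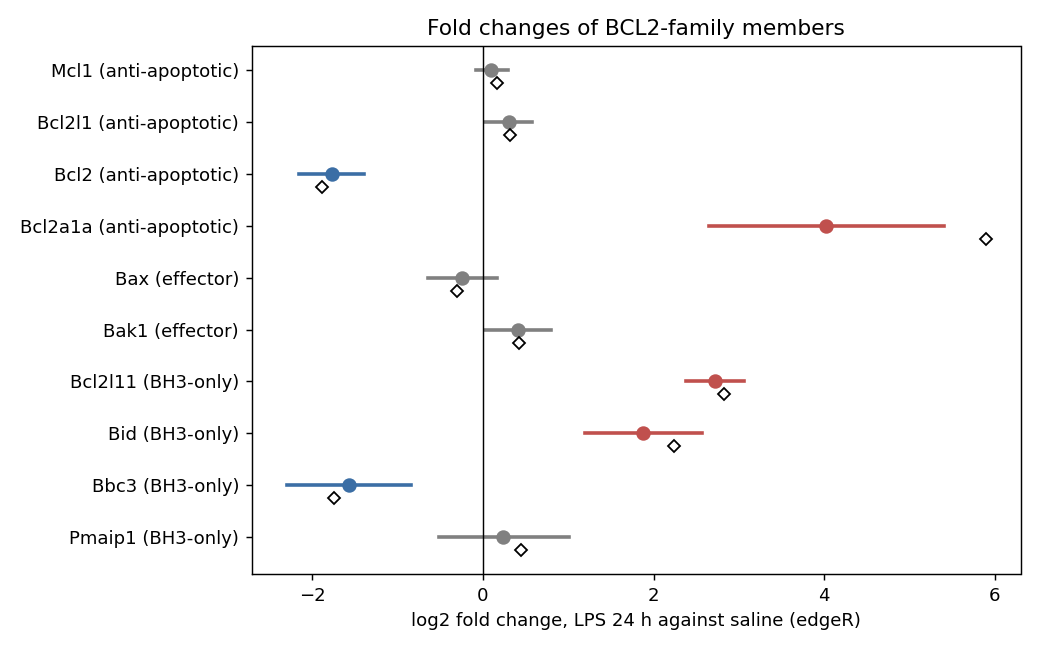
Log2 fold change of each member between LPS and saline (edgeR, n = 5 per group) with its 95% interval; red rose, blue fell, grey did not pass the adjusted p of 0.05, and open diamonds give the value without saline replicate 5. Bcl2a1a moves most when that library is left out, from 4.02 to 5.89.

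Ratios within a library do not depend on scaling, so 4 of them between a pro- and an anti-apoptotic gene were compared between groups by a two-sided exact permutation of the libraries. The ratio of Bax to Bcl2 read counts was 1.02, 1.22, 1.36, 1.19 and 1.51 in saline and 5.68, 2.21, 4.86, 2.89 and 2.69 in LPS replicates 1 to 5. The mean log2 ratio rose from 0.32 ± 0.21 to 1.78 ± 0.59 (SD, n = 5 per group; exact p = 0.00794, the smallest the design allows; adjusted p = 0.0317 over 4 ratios). All LPS hearts were above all saline hearts, by a mean log2 difference of 1.46. Of the pair, Bcl2 passed the test on its own and Bax did not, so the ratio largely restates the fall of Bcl2 in the same counts. None of the 4 ratios held Bcl2l11, Bid, Bcl2a1a or Bbc3, the other members called.

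The other 3 ratios did not pass the test. Bak1 to Bcl2l1 differed by 0.08 on the log2 scale (exact p = 0.675), Bak1 to Mcl1 by 0.28 (exact p = 0.254) and Pmaip1 to Mcl1 by 0.08 (exact p = 0.833), each with 5 libraries per group. Adjusted over the 4 ratios their p-values were 0.833, 0.508 and 0.833.

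**Figure D3:**
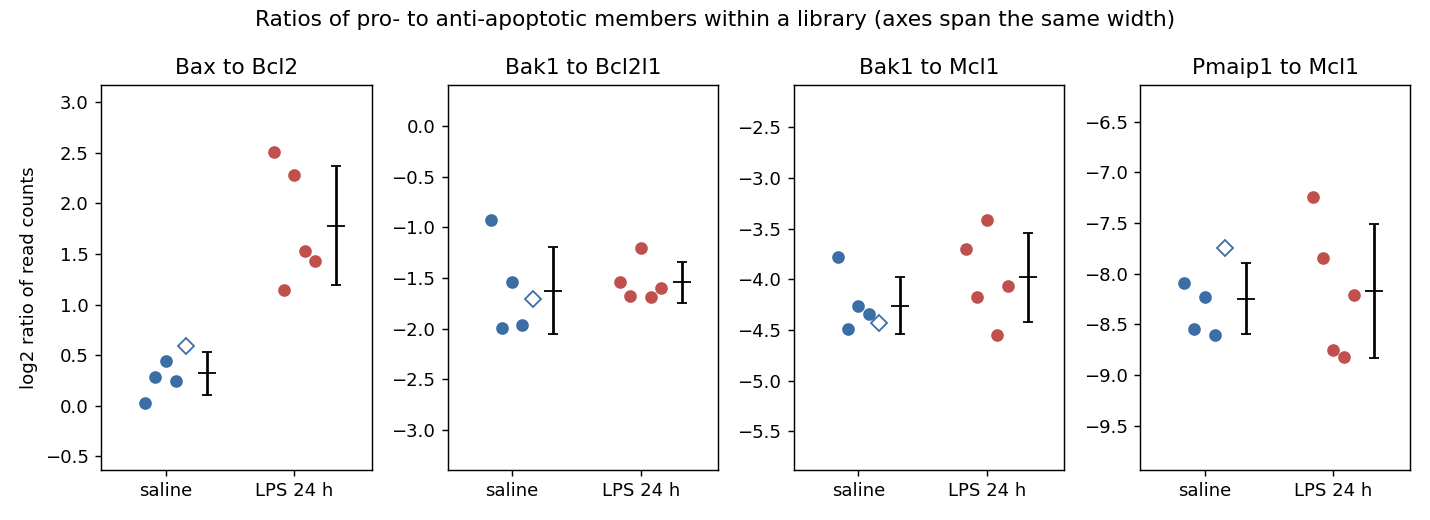
Log2 ratio of read counts between a pro-apoptotic and an anti-apoptotic member in each saline (blue) and LPS (red) library, with mean and SD at the right of each group and saline replicate 5 as an open diamond; the panels' axes span the same width. Bax to Bcl2 separates the groups, at 0.03 to 0.59 in saline and 1.14 to 2.51 in LPS hearts.

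Levels of different genes were compared as CPM per kilobase of deposited gene length, among the 10 members and with Bcl2a1a taken without its copies. In saline hearts Mcl1 was highest at 66.0 ± 5.92 CPM per kilobase (SD, n = 5), above Bax (8.20 ± 1.04) and Bcl2l1 (8.00 ± 1.34), whose ranges overlapped. Bak1 followed at 4.94 ± 0.891 and Bcl2l11 at 1.92 ± 0.414 CPM per kilobase. Below Bcl2l11 each neighbour in the order (Bbc3, Bcl2, Bid, Bcl2a1a and Pmaip1) overlapped the next.

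In LPS hearts Mcl1 still led at 70.9 ± 3.33 CPM per kilobase, but Bcl2l11 came next at 12.7 ± 2.07, overlapping Bcl2l1 at 9.84 ± 1.44. Bax, Bak1 and Bcl2a1a followed at 6.92 ± 2.20, 6.56 ± 1.81 and 5.55 ± 1.65 CPM per kilobase, with overlapping ranges. Bid was separate at 2.12 ± 0.739, and Bbc3, Pmaip1 and Bcl2 were lowest, at 0.433 ± 0.135, 0.343 ± 0.153 and 0.337 ± 0.0468 CPM per kilobase, and overlapped.

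Within each role, shares were taken of the members' summed per-kilobase level. Bcl2l11 was 39.2% to 54.2% of the summed per-kilobase level of the 4 BH3-only members in saline hearts and 73.5% to 88.3% in LPS hearts. Bbc3 was 12.2% to 44.9% and then 1.44% to 3.80%. Both the 12.2% of Bbc3 and the 54.2% of Bcl2l11 were those of saline replicate 5, and no range without it is given here. Mcl1 was the main anti-apoptotic transcript in every library, at 85.9% to 88.8% of the summed level of the 4 in saline and 77.2% to 84.8% in LPS hearts. Summed over the 6 pro-apoptotic members the level was 16.2 to 18.8 CPM per kilobase in saline and 25.7 to 33.3 in LPS hearts, while the 4 anti-apoptotic members summed to 67.1 to 85.5 and 83.2 to 89.1. These sums are descriptions and were not tested. They take Bcl2a1a without its copies. In saline and LPS hearts, Bcl2a1d had means of 0.6 and 9.86 CPM per kilobase, and Bcl2a1b of 0.256 and 2.27. Other relatives of either role are left out too, so the sums and shares hold for the 10 members only.

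Other relatives of the family moved in both directions too. Of 15 listed, 10 passed the filter, 4 rose and 4 fell, where 18.9% of all tested genes rose and 21.0% fell. The median log2 fold change was -0.26 against -0.02 for all tested genes. The same background holds for the lists that follow. Among those that rose were Bmf, a BH3-only gene (from 5.27 ± 0.749 to 13.0 ± 3.72 CPM, log2 fold change 1.29), Bcl2a1d (4.05, or 4.78 without saline replicate 5), the mitophagy receptor Bnip3 (0.51) and Bcl2l13 (0.32). Those that fell were Bok, an effector relative (from 4.11 ± 1.52 to 0.974 ± 0.797 CPM, log2 fold change -2.05), the BH3-only gene Bik (-1.48), the mitophagy receptor Bnip3l (-0.80) and Bcl2l12 (-0.76). The 2 others tested were between -0.49 and -0.04, and 5 fell without saline replicate 5. When LPS replicate 4 or saline replicate 1 or 4 was left out, Bcl2l12 did not pass (highest adjusted p 0.066), nor did Bnip3 (0.24) and Bcl2l13 (0.05) with total count scaling, or Bcl2l13 with upper quartile scaling (0.16).

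Of the 5 relatives under the filter, Hrk, a BH3-only gene of neurons, had 100 reads in saline and 5 in LPS libraries, and with no filter its log2 fold change was -3.84 ± 0.65 (SE, edgeR adjusted p = 8.32e-06). Bcl2a1b had 18 and 132 reads (3.16 ± 1.15, adjusted p = 0.092). Bcl2l10, Bcl2l14 and Bcl2l15 were at or near 0.

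Downstream of the pores, of 6 genes of the apoptosome and the caspases 3 rose and 2 fell (39.9% of all tested genes were called in either direction), with a median log2 fold change of 0.46 against -0.02 for all. Apaf1, the scaffold of the apoptosome, went from 17.0 ± 14.2 to 93.0 ± 25.8 CPM (log2 fold change 2.45 ± 0.50 SE, edgeR adjusted p = 0.00444), or 3.12 without saline replicate 5. Casp8, the initiator caspase of death receptors, rose by 1.61 and Casp2 by 0.69, both log2 fold changes. Casp9, the caspase that the apoptosome activates, fell to 6.09 ± 0.514 CPM after LPS against 12.1 ± 2.30 CPM in controls (log2 fold change -0.99 ± 0.15 SE, edgeR adjusted p = 0.00016), and Casp6 fell (-0.69). Casp2 did not pass with total count scaling (0.42).

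Of 9 listed released mitochondrial proteins and inhibitors of apoptosis (IAPs), 8 were tested, 3 rose and 0 fell (0 also at an unadjusted p under 0.05 with edgeR); of the 5 not called by edgeR, log2 fold changes were between -0.19 and 0.31. The IAP genes Birc3 and Birc2 rose, to 198.4 ± 17.9 and 165.6 ± 20.3 CPM after LPS where controls were at 33.1 ± 43.0 and 36.4 ± 23.5 CPM. Their log2 fold changes of 2.59 and 2.18 were 3.84 and 2.68 without saline replicate 5. Xiap, the IAP that blocks caspases directly, rose by 0.31, and did not pass without saline replicate 3 (adjusted p = 0.0517) or with total count (0.04) or upper quartile (0.16) scaling. The list's median was 0.29. Without LPS replicate 5, 5 of the list rose and 1 fell. The 4 outer membrane partners (Vdac1, Vdac2, Vdac3 and Mtch2) had log2 fold changes between 0.12 and 0.22, and 0 passed the test with edgeR, 1 with DESeq2 and 1 at an unadjusted edgeR p under 0.05; 1 rose without saline replicate 5 or LPS replicate 5.

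Of p53 and 11 of its known targets, 12 genes in all, 5 rose and 2 fell (18.9% and 21.0% of all tested genes). The cell cycle inhibitor Cdkn1a (2.39, or 3.0 without saline replicate 5) and the death receptor Fas (1.96, or 2.55 without it) rose. Eda2r (1.72), the nuclease Aen (0.77) and Trp53inp1 (0.63) rose too, and Phlda3 (-1.53) and Zmat3 (-0.73) fell. Each value is a log2 fold change. The list's median was 0.28, and Trp53inp1 did not pass with total count scaling (0.36). Without saline replicate 5, 7 rose and 2 fell (21.0% and 22.9% of all tested genes in that fit). Beside these, Bbc3 fell and the p53 targets Bax and Pmaip1 did not pass.

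Of 6 regulators of MCL-1 or BIM, 2 rose and 1 fell, with a median of 0.04. Fbxw7, a ubiquitin ligase subunit that marks MCL-1 for destruction, fell by 1.29 ± 0.11 (SE) on the log2 scale, and LPS hearts held 21.9 ± 3.60 CPM where controls held 53.3 ± 2.69 CPM (edgeR adjusted p = 1.56e-06). Foxo3, a transcription factor known to drive Bcl2l11 and Bbc3, rose by 0.66 ± 0.16, and Usp9x, a deubiquitinase of MCL-1, by 0.38 ± 0.12. The 3 not called were between -0.30 and 0.29, with the other FOXO gene of the list, Foxo1, at -0.30 (edgeR adjusted p = 0.0674). When saline replicate 3 or 4 was left out, Usp9x did not pass (highest adjusted p 0.0592) and 1 regulator rose, and 2 fell without LPS replicate 5. With total count (0.11) or upper quartile (0.23) scaling it did not pass either.

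**Figure D4:**
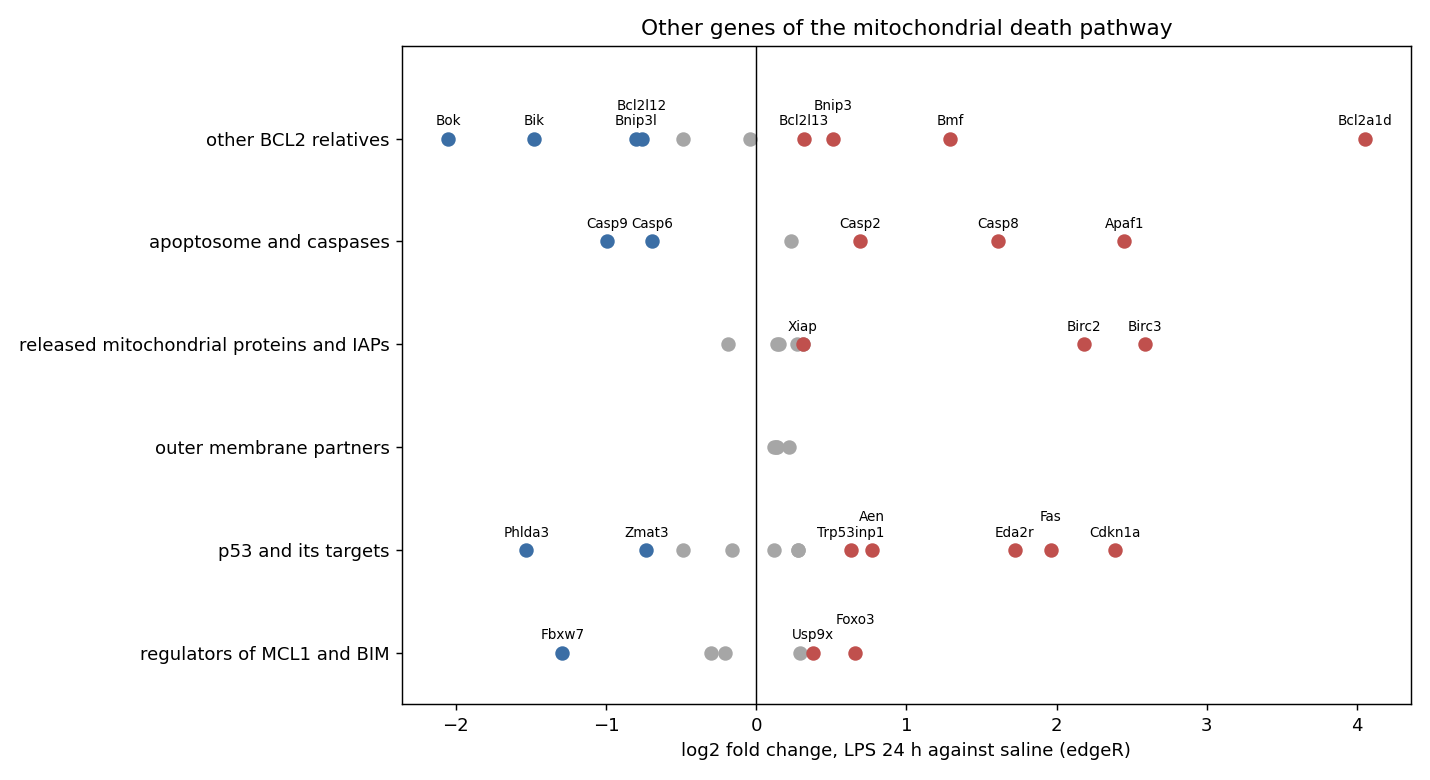
Log2 fold changes between LPS and saline (edgeR) of tested genes in 6 lists beside the 10 members; red rose, blue fell and grey did not pass the adjusted p of 0.05, with names given for those that passed. Rising and falling genes stand side by side among the BCL2 relatives, the caspases, the p53 targets and the regulators of MCL-1 and BIM.

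In the authors' deposited table of Reactome terms, the term for activation of BH3-only proteins held 10 differential genes of 18, 7 up and 3 down, with a p-value of 0.0811 and an adjusted p-value of 0.343. In the authors' deposited table the intrinsic apoptosis pathway held 14 of 28 (adjusted p-value 0.416). Bcl2l11 and Bid are counted there as up and Bcl2 as down. No term there counts any other member as up or down, and so neither Bbc3 nor Bcl2a1a.

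Genes whose log2 CPM ran closest to that of a member over the 10 libraries were ranked by Pearson's r, as a description, among those averaging 5 CPM or more. The libraries are of 2 groups, so r reflects the difference between groups as well as the spread within them. For Bcl2l11 they were Timp3 and Map2k1 (both 0.995), for Bcl2 Stard8 (0.995) and 2900026A02Rik (0.994), and for Bcl2a1a Gramd1a and Plscr1 (both 0.996). Bid was most like Ifngr1 (0.984) and Trpv4 (0.973), and Bbc3 like Rsu1 (0.983) and Ppm1m (0.977). For the members that did not pass, the highest values were 0.929 for Bcl2l1 with Ctu2, 0.904 for Mcl1 with Nasp, 0.950 for Bax with Arsa, 0.926 for Bak1 with Ntn1 and 0.952 for Pmaip1 with Tulp4.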

How the data were processed

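The authors deposited raw read counts per gene for 10 heart libraries. Bowtie 0.12.2 and mm9 are listed, per the submitters' processing notes, with no role or order. Counter and strand setting: not given in the sources used here. Gene starts and ends equalled GENCODE M21 (GRCm38) for 53499 of 54532 identifiers, so coordinates are given as GRCm38. A further 30 columns of per-sample values were not used, among them tables whose LPS columns are named 3 h where the labels give 24 h; the groups follow the labels. Enrichment p-values are the authors' own, from their deposited table, per the file headers.

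The test was run in edgeR 4.0.16 under R 4.3.3: filterByExpr defaults (minimum count 10, total 15), TMM scaling, the quasi-likelihood F-test with robust dispersions and Benjamini-Hochberg adjustment over 13864 genes; standard errors come from the F statistic. Values are mean ± SD over 5 libraries. "Rose" and "fell" mean an adjusted p under 0.05. The fit was checked on simulated counts. Alternatives used limma 3.58.1, DESeq2 1.42.0, other scalings and filters, a replicate block and single libraries left out. All 10 members are named. From other lists, genes past the threshold are named, with Foxo1 and a few under the filter named after their values were seen. Some genes of the caspase list are not reported here. Members and lists were chosen with earlier results of these data known.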

Additional observations from a re-analysis of the deposited data

Results flagged for a closer look

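Of 82 groups of 5 libraries examined, 12 held a library far from the other 4 by Dixon's criterion. For independent normal values chance gives about 1 in 20. The groups reuse the same 10 libraries, and the Bcl2a1 sum contains Bcl2a1a and Bcl2a1d. The 12 of 82 can therefore not be read against that rate. In 10 of the 12 groups the far library was saline replicate 5, on the high side. Its value was 1.13 CPM for Bcl2a1a (the others 0.0522 to 0.116), 1.37 for Bcl2a1d (0.209 to 0.505), 3.27 for the summed Bcl2a1 copies (0.313 to 0.561) and 3.86 for Bid (1.39 to 1.85). It was 42.2 CPM for Apaf1 (8.53 to 12.7), 78.4 for Birc2 (22.8 to 27.8) and 110.0 for Birc3 (12.7 to 15.8). It was 155.4 CPM for Cdkn1a (31.5 to 61.0), 53.6 for Fas (11.9 to 17.4) and 147.9 for Usp9x (105.9 to 118.1).

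The remaining 2 were LPS replicate 1 for Bcl2a1a, at 6.85 CPM with the others between 3.50 and 4.42, and saline replicate 1 for Aen, at 26.6 CPM with the others between 23.5 and 24.1.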

How the results depend on the processing

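Bcl2, Bcl2a1a, Bbc3, Bcl2l11 and Bid kept call and direction under all alternatives run. The replicate block gave 2582 rising and 2836 falling genes, changed no call of a member or other named gene, and gave 5 falling BCL2 relatives and 3 rising regulators, each with 1 gene more. Deviations of same-numbered libraries from their group means correlated between -0.0687 and 0.181. For 1 of 5 numbers the best correlated library was its own partner. Saline replicate 5 weighs on the saline means, so this cannot decide whether the numbers pair samples. Total count scaling shifted the median of all genes by -0.28 (1711 rose, 5774 fell) and upper quartile scaling by -0.16 (4407 fell); rising genes made up 47.3% of calls under TMM, 31.1% under upper quartile and 22.9% under total count scaling. Signs turned for Mcl1 (-0.05 upper quartile, -0.17 total count) and Pmaip1 (-0.01 total count). With total count scaling 2 BCL2 relatives rose; with either of these scalings 1 IAP-list gene fell, and 1 regulator rose and 3 fell (2 fell with limma voom). RLE scaling and DESeq2 each called 1 outer membrane partner. Without single libraries, rising members numbered 3 to 5 (anti-apoptotic 1 to 2, effectors 0 to 1), the IAP list 2 to 5 rising and 0 to 1 falling, outer membrane partners 0 to 1, and regulators 1 to 3 rising and 1 to 2 falling. Log2 fold changes ranged over 0.24 to 0.40 for Bcl2l1, 0.27 to 0.55 for Bak1 and -0.03 to 0.45 for Pmaip1. Differences in log2 ratio ranged over 1.28 to 1.62 for Bax to Bcl2, -0.01 to 0.26 for Bak1 to Bcl2l1 and -0.16 to 0.24 for Pmaip1 to Mcl1; with 4 against 5 libraries the smallest exact p is 0.0159, or 0.0635 adjusted, so no ratio could pass. The causes were not tested. Bbc3, Bid, Bcl2a1a and Pmaip1 rest on few reads, which limits their precision.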

Other observations

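The place of saline replicate 5 between the other saline libraries and the LPS libraries differed from member to member. On the scale of log2 CPM it lay 17.4% of the way from the mean of saline replicates 1 to 4 to the LPS mean for Bcl2l11 and 36.7% for Bcl2. It lay 59.2% of the way for Bid, 67.6% for Bcl2a1a and 75.3% for Bbc3. These are values of 1 library, with no test.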
